A study of Mus musculus with 15 samples.

Results

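The genes described here are those of DNA replication and S phase, a list of 41 genes that runs from the marking of replication origins to the joining of the new strands. A member was the brightest probe set, by its mean over 15 arrays, among the probe sets that the platform annotation gives 1 symbol on the list. In this way 40 of the 41 genes were found among 17097 genes tested, and Chaf1a was not analysed here. Expression was measured on microarrays of LSK cells, marrow cells negative for lineage markers and positive for Sca-1 and Kit, among which are the stem cells of the blood and its earliest progenitors. All 5 groups derive from marrow of female C57Bl/6 donors treated with 5-fluorouracil, transduced with a retrovirus and transplanted into lethally irradiated mice, and fluorescent LSK cells were sorted from the recipients without culture. The HOXB4 groups carried MSCV-HOXB4-ires-YFP, which expresses the homeobox protein HOXB4 with a yellow fluorescent protein, and were taken at 6, 12 and 20 weeks. The GFP groups carried MSCV-ires-GFP, the same kind of vector with a green fluorescent protein alone, and were taken at 12 and 20 weeks. Each group had 3 arrays. The sample titles give 20 weeks as the last time and the series text gives 24, and the titles were followed. The viral promoter acts in every transduced cell and its descendants, so the vector is not limited to stem cells. The labels do not tie the 3 arrays of a group to separate mice. The p-values therefore measure only how far these arrays spread, part of which may be technical.

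Replication begins when the origin recognition complex, with Cdc6 and Cdt1, loads the ring-shaped Mcm2 to Mcm7 helicase onto DNA in G1. Cyclin E and the E2F factors then open S phase, Cdc45 and the GINS complex activate the helicase, and the polymerases copy both strands behind the sliding clamp Pcna. Most of these genes are transcribed under E2F control, and their transcript levels rise as cells leave quiescence. They are therefore used as a readout of cycling in blood stem and progenitor cells.

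Promoters bound by E2F factors often carry short sites of known letters, and the stretches below show such letters in the members whose stretch lies wholly upstream of the start. The letters TTTGGCGC, TTTCCCGC, TTTGCCGC and TTTCGCGC were searched on both strands of windows from 250 bases before to 50 bases after each RefSeq gene start (GRCm38.p6). A window was at hand for 32 members, and 13 of them (40.6%) held at least 1 match, against 515 of 13605 tested genes with a window (3.79%). The 13 were Mcm3, Mcm5, Mcm6, Mcm7, Cdc6, Cdt1, Orc1, Pola1, Pold1, Rfc3, Lig1, Uhrf1 and Msh6. Each line gives a stretch 5′ to 3′ on the gene's strand, with the matched letters in capitals. In Mcm5 and Mcm6 a pair of matches on opposite strands overlap and are shown as 1 run.
Orc1, chr4:108579411-108579450, plus strand, match 27 bases before the start: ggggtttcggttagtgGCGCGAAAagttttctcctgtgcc
Uhrf1, chr17:56304112-56304151, plus strand, match 185 bases before the start: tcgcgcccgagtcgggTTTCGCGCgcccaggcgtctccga
Mcm5, chr8:75109340-75109383, plus strand, match 153 bases before the start: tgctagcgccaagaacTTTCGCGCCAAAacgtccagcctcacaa
Mcm6, chr1:128359788-128359831, minus strand, match 110 bases before the start: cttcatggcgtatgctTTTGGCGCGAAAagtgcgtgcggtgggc
Mcm6, chr1:128359729-128359768, minus strand, match 47 bases before the start: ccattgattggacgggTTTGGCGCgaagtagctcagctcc
Mcm7, chr5:138172025-138172064, minus strand, match 165 bases before the start: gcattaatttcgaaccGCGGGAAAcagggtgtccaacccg
Cdc6, chr11:98907997-98908036, plus strand, match 138 bases before the start: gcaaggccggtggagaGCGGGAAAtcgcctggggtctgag
Pola1, chrX:93632270-93632309, minus strand, match 138 bases before the start: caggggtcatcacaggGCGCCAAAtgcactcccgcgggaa
Orc1 and Uhrf1, which both carry a match, were the members that differed between HOXB4 and GFP cells at 20 weeks. The third member that passed a test, Chaf1b, held none of these letters in its window. Most members with a match passed no test, and the calls of Orc1 and Uhrf1 rested on the probe set used, as described below. Whether a match goes with a difference was not tested. A match describes the sequence and is not a measured binding site. The windows of Ccne2, Exo1, Gins1, Gins2, Mcm4, Pole, Rfc2 and Tipin were not used here.

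The arrays were comparable in overall signal, with medians of the log2 values between 5.25 and 5.40. HOXB4 replicate 1 at 6 weeks stood apart in RNA quality, with a Gapdh 3′ minus 5′ difference of 3.76 log2 units, against 0.809 to 2.02 on the other arrays. The other 2 arrays of HOXB4 at 6 weeks had 1.68 and 1.71, also above every GFP array and every HOXB4 array at 12 weeks. Kit, which defines the sorted fraction, was bright in all groups, with log2 signals from 7.89 to 8.79, while Ly6a, which encodes Sca-1, was not analysed here. Markers of other cells moved between the groups, and lists with called genes are given beside each comparison of 2 groups. The arrays measured bulk RNA, so fewer cells in S phase and less RNA of a gene per cell cannot be told apart.

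Across the 5 groups the replication genes stayed close to their own averages. The difference between a member's highest and lowest group mean had a median of 0.43 log2 units, against 0.40 over all genes. The median SD within groups was 0.21 for the members and 0.19 for all genes. No member spanned more than 1 log2 unit, a span that 7.84% of all genes exceeded. The narrowest spans were those of Rpa2, a subunit of the single-strand binding protein (0.22), Rfc2 of the clamp loader (0.26) and the cyclin Ccne1 (0.27). The widest were those of Rfc3, also of the clamp loader (0.87), Gins2 of the GINS complex (0.85), the histone chaperone subunit Chaf1b (0.83) and the cyclin Ccne2 (0.82).

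**Figure D1:**
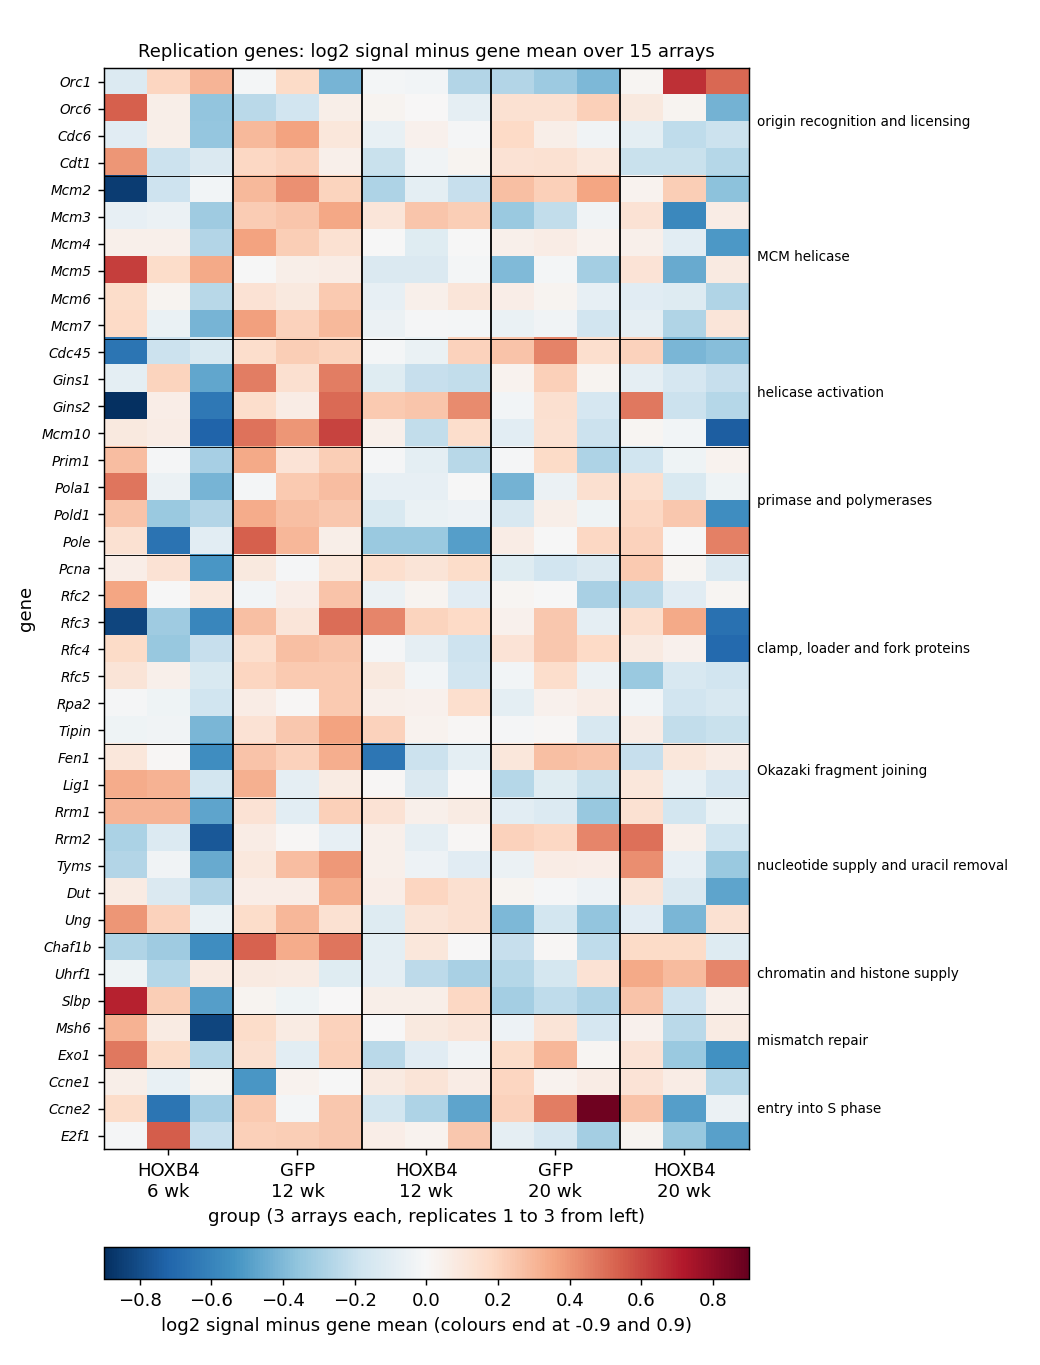
Log2 signal of each of the 40 replication genes on each of the 15 arrays, minus the gene's mean over all arrays, with genes in rows grouped by role and arrays in columns grouped by vector and week. The 3 GFP columns at 12 weeks are mostly red, with 34, 33 and 36 of the 40 genes above their own mean, and HOXB4 replicate 3 at 6 weeks is mostly blue, with 5 above.

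The group that stood highest was GFP at 12 weeks, where 26 of the 40 members had their highest mean, against 24.4% of all genes. The lowest mean lay in HOXB4 at 20 weeks for 12 members, in HOXB4 at 6 weeks for 11, in GFP at 20 weeks for 9, in HOXB4 at 12 weeks for 6 and in GFP at 12 weeks for 2. Of all genes 16.6%, 25.6%, 25.9%, 14.2% and 17.7% had their lowest mean in these groups, in the same order. No single group was thus lowest for most members, but against these shares the members' excess was largest in HOXB4 at 20 weeks. The members' spread between arrays was itself unequal, with a median SD of 0.29 in HOXB4 at 6 weeks and 0.22 in HOXB4 at 20 weeks, but 0.11, 0.08 and 0.11 in GFP at 12, HOXB4 at 12 and GFP at 20 weeks.

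Whether HOXB4 cells differ from control cells in their replication genes was asked first at 12 weeks. No member passed the test there. Of all 17097 genes 4.02% were called at an adjusted p under 0.05 with limma, and of the 40 members 0, with a smallest adjusted p of 0.051. The members nevertheless lay mostly on 1 side, with 35 of 40 below 0 (52.8% of all genes) and a median of -0.16, against -0.02 over all genes. At an unadjusted p under 0.05 there were 10 members (all genes 19.6%), each lower in HOXB4 cells (all genes, lower only, 11.0%). The 3 HOXB4 arrays lay below the 3 GFP arrays for 17 members (all genes 20.5%) and above them for 3 (all genes 14.4%). For 39 of the 40 members the 95% interval of the difference lay within 2-fold either way, and for 26 within 1.5-fold.

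Read by role, several groups lay below 0 as a whole at 12 weeks. All 4 members of the primase and polymerase group were below 0, with a median of -0.36. Pole, the catalytic subunit of the leading-strand polymerase, had a mean of 8.06 ± 0.24 (SD, n = 3) in GFP and 7.38 ± 0.09 in HOXB4 cells, a difference of -0.69 ± 0.18 (SE, adjusted p = 0.0511). Prim1, the small primase subunit, differed by -0.35, Pold1, the catalytic subunit of the lagging-strand polymerase, by -0.37, and Pola1, which extends the primers, by -0.22.

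For the helicase and its activators the picture was mixed. All 6 subunits of the Mcm2 to Mcm7 ring were below 0, from -0.08 for Mcm3 to -0.49 for Mcm2, and none passed the test. Gins1 differed by -0.53 ± 0.15 (SE, adjusted p = 0.0596) and Mcm10, which stabilises the active helicase, by -0.50 ± 0.22 (adjusted p = 0.237). The other 2 activators were near 0, with Cdc45 at -0.15 and Gins2 at 0.06. The GINS complex therefore gave unlike values for its 2 measured subunits on the list.

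Fen1, the nuclease that trims Okazaki fragments, had 6.90 ± 0.06 (SD, n = 3) in GFP and 6.32 ± 0.30 in HOXB4 cells, a difference of -0.58 ± 0.18 (SE, adjusted p = 0.0809), while Lig1, which seals them, differed by -0.14. The clamp and its loader were flatter, with values from -0.32 for Rfc4 to 0.09 for Pcna. The ribonucleotide reductase subunits Rrm1 and Rrm2, which make the DNA precursors, and the dUTPase Dut gave 0.00, -0.01 and -0.01, the smallest differences on the list at 12 weeks. The 5 members above 0 were Ccne1 (0.25), Orc6 and the histone mRNA binding protein Slbp (both 0.10), Pcna and Gins2.

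**Figure D2:**
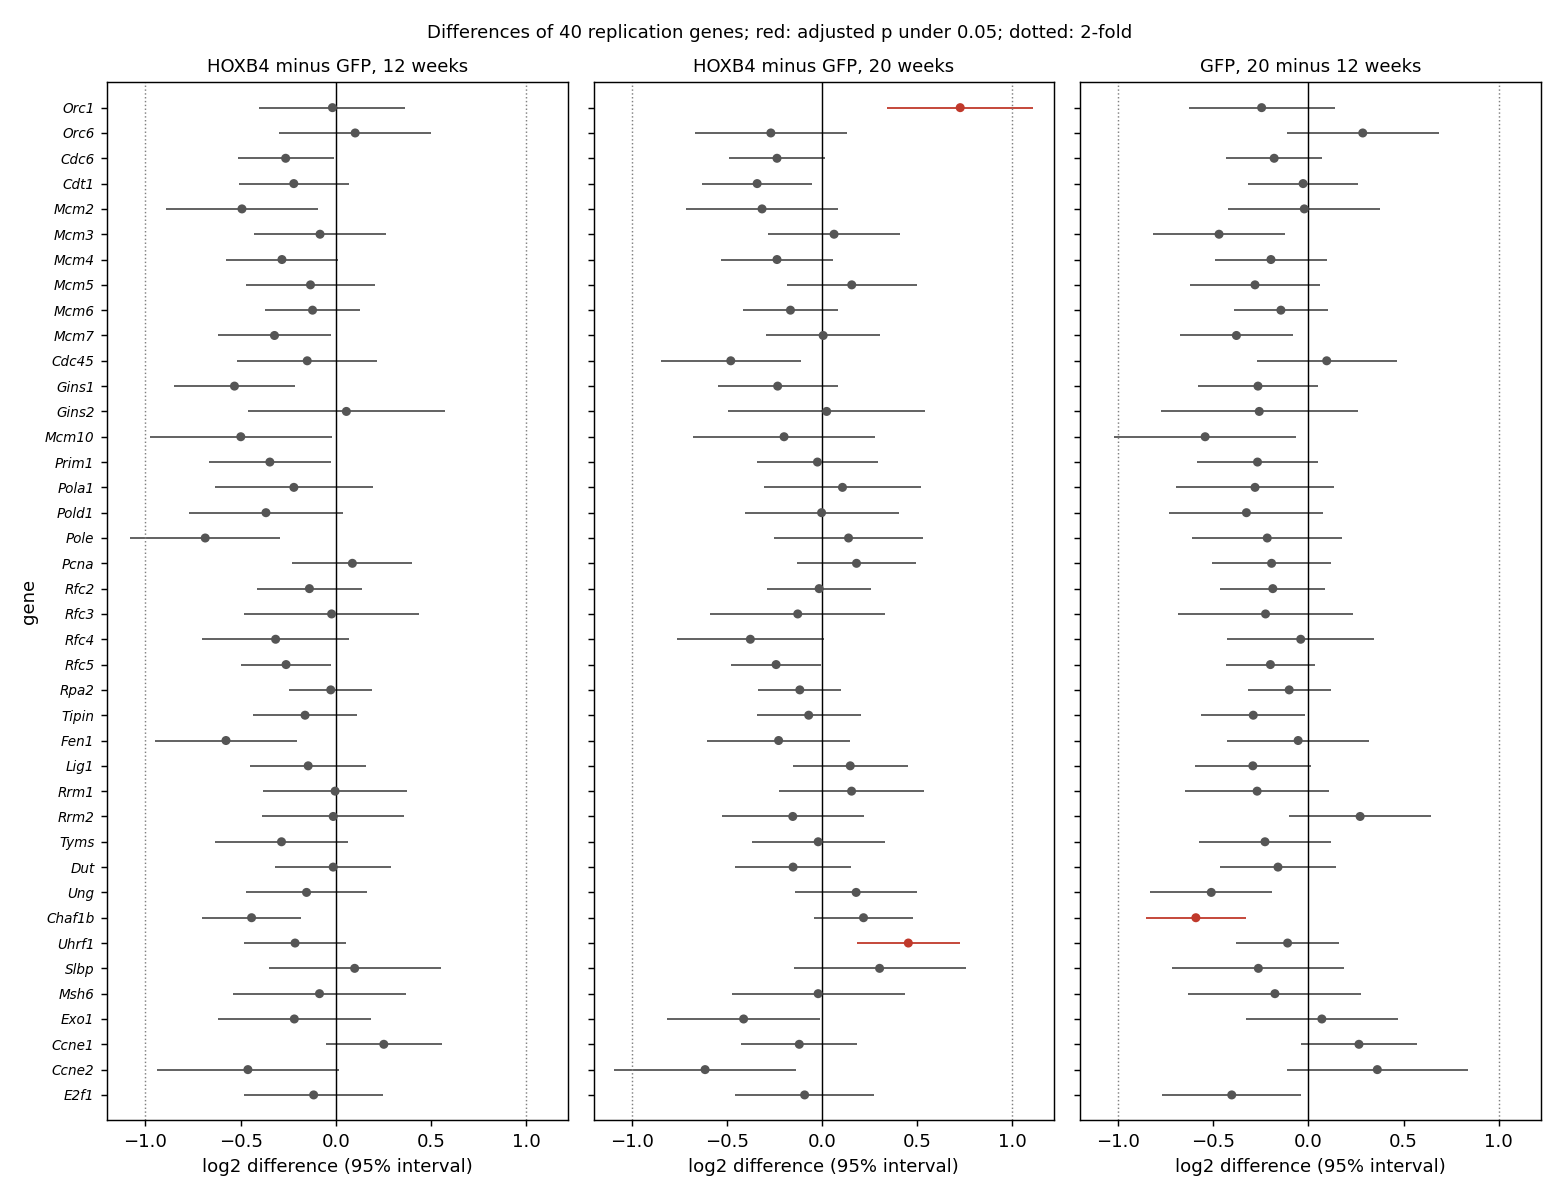
Log2 difference of each of the 40 replication genes with its 95% interval from the limma model, for HOXB4 minus GFP at 12 weeks (left), HOXB4 minus GFP at 20 weeks (middle) and GFP at 20 minus 12 weeks (right), with dotted lines at 2-fold and adjusted p under 0.05 in red. Most points lie left of 0 in the left and right panels, and the red points are Orc1 and Uhrf1 in the middle panel and Chaf1b in the right panel.

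The 12-week count depended on which arrays gave the spread. Fitted on the 6 arrays of the 2 groups alone, limma called 9 members, all lower in HOXB4 cells (Mcm2, Mcm7, Mcm10, Gins1, Pold1, Pole, Fen1, Ccne2 and Chaf1b), and 15.2% of all genes. The common shift depended on the scaling. After quantile normalisation was applied once more, 27 members in place of 35 lay below 0, and their median was -0.07.

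Markers of other cells moved at the same time. Of 8 measured genes of granulocyte progenitors 7 were lower in HOXB4 cells at 12 weeks, and the log2 of their summed signal ran from 13.8 to 14.0 on the GFP arrays and from 12.3 to 12.6 on the HOXB4 arrays. Of 9 measured B cell genes 8 were higher, with sums of 9.16 to 9.40 on the GFP and 12.2 to 12.7 on the HOXB4 arrays. Neutrophil sums were also higher in HOXB4 cells (12.5 to 13.1 against 10.6 to 11.5), with 1 of 9 genes called, Camp (2.37, adjusted p = 0.0264), and so were megakaryocyte sums (11.8 to 12.0 against 10.6 to 11.0), with 2 of 9 called. Of 8 measured genes that mark LSK cells 2 were lower, Cd34 (-0.75, adjusted p = 0.00731) and Kit, which ran from 8.62 to 8.79 in GFP and from 7.94 to 8.14 in HOXB4 cells. Their sums overlapped, with 11.81 to 11.83 on the GFP and 11.67 to 11.85 on the HOXB4 arrays. Without passing the test, Slamf1 lay higher (1.64, adjusted p = 0.0829) and Procr lower (-1.01, adjusted p = 0.0799). Of 7 mast cell and eosinophil genes 1 was higher and 3 were lower. Of 9 monocyte genes 1 was lower, Irf8 (-0.99, adjusted p = 0.0417). The part of these cells in the members' values was not tested.

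At 20 weeks 2 members rose in HOXB4 against GFP cells, the origin gene Orc1 and the chromatin gene Uhrf1, and none fell. That is 5.00% of the members, against 8.95% of all genes, so the share called was below the background. The members' median was -0.08 (all genes 0.02), and 26 of 40 lay below 0 (all genes 45.9%). At an unadjusted p under 0.05 there were 7 (all genes 22.1%), with 5 of them lower (all genes, lower only, 11.8%). The HOXB4 arrays lay below the GFP arrays for 8 members (all genes 12.5%) and above them for 3 (all genes 12.9%). For 38 members the 95% interval lay within 2-fold.

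Orc1 is the largest subunit of the origin recognition complex and the one whose level changes through the cell cycle. Its log2 signals were 6.28, 6.92 and 6.78 in HOXB4 cells at 20 weeks and 6.00, 5.94 and 5.86 in GFP cells at 20 weeks. They were 6.25, 6.24 and 6.00 in HOXB4 and 6.25, 6.44 and 5.85 in GFP cells at 12 weeks, and 6.14, 6.46 and 6.57 in HOXB4 cells at 6 weeks. At 20 weeks the 2 groups did not overlap, whereas at 12 weeks they did, and the 6-week HOXB4 arrays reached into the range of the 20-week ones.

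The difference at 20 weeks was 0.73 ± 0.18 (SE, 1.65-fold, adjusted p = 0.0193), and at 12 weeks it was -0.02 ± 0.18. The change of that effect between the times was 0.74 ± 0.25 with an adjusted p of 0.273, so the times were not shown to differ. Other members that act with Orc1 at origins went the other way at 20 weeks without passing the test, namely Orc6 (-0.27), Cdc6 (-0.24) and Cdt1 (-0.34).

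Uhrf1 binds hemimethylated DNA behind the fork and brings in the maintenance methyltransferase. It gave 10.08, 10.02 and 10.18 in HOXB4 cells at 20 weeks and 9.48, 9.58 and 9.87 in GFP cells at 20 weeks. At 12 weeks it gave 9.66, 9.50 and 9.45 in HOXB4 and 9.82, 9.81 and 9.63 in GFP cells, and at 6 weeks 9.70, 9.48 and 9.82 in HOXB4 cells. The 3 HOXB4 arrays at 20 weeks were the highest of the 15.

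The 20-week difference of Uhrf1 was 0.45 ± 0.13 (SE, 1.37-fold, adjusted p = 0.0361). Within HOXB4 cells the 20-week mean lay 0.56 ± 0.13 above the 12-week mean (adjusted p = 0.0895) and 0.43 ± 0.13 above the 6-week mean (adjusted p = 0.0686), and neither passed the test. The change of the HOXB4 effect between the times was 0.67 ± 0.18 (adjusted p = 0.142).

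Both calls rested on the probe set used. A second, dimmer probe set of Orc1 gave -0.18 ± 0.16 at 20 weeks (adjusted p = 0.561 over all named probe sets) and that of Uhrf1 gave -0.15 ± 0.19 (adjusted p = 0.719), so neither showed the rise. With the probe sets of a gene averaged, Orc1 differed by 0.27 (adjusted p = 0.215) and Uhrf1 by 0.15 (adjusted p = 0.472). Fitted on the 6 arrays at 20 weeks alone, limma called 0 members (all genes 4.18%). Leaving out 1 array also ended the Orc1 call in 5 fits, those without any 1 of the 3 GFP arrays or without HOXB4 replicate 2 or 3 at 20 weeks, with adjusted p from 0.0519 to 0.0788. The Uhrf1 call ended in 6 such fits, those without GFP replicate 1 or 2 or any 1 of the HOXB4 arrays at 20 weeks, or without HOXB4 replicate 2 at 12 weeks, with adjusted p from 0.0506 to 0.154.

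**Figure D3:**
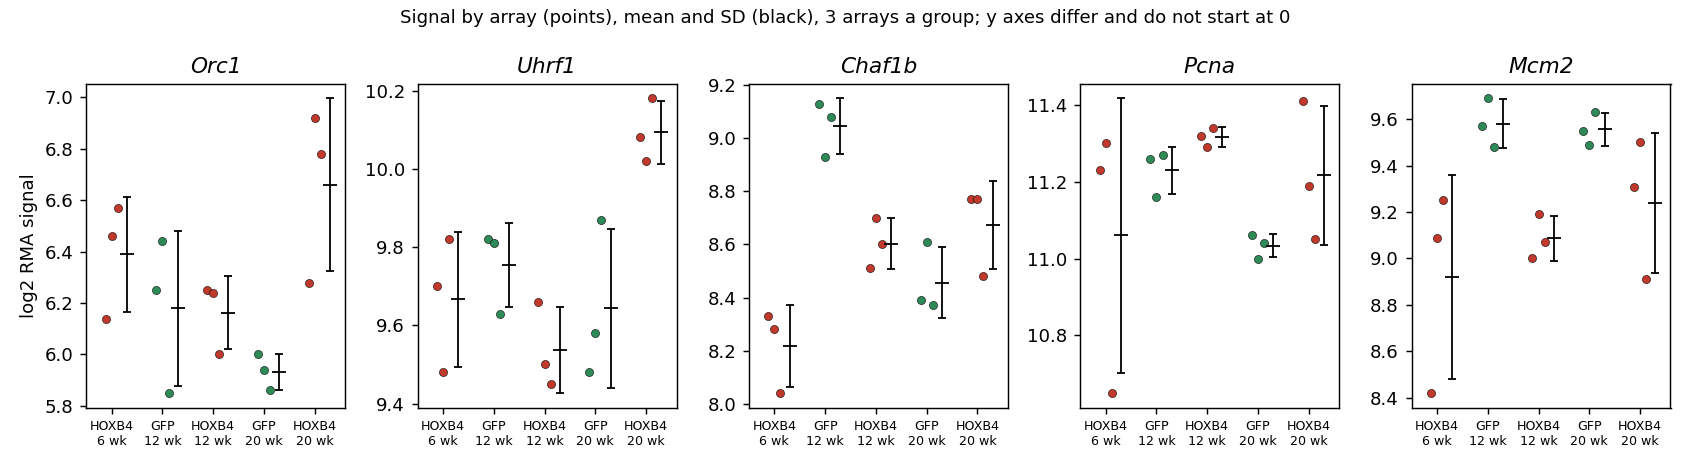
Log2 RMA signal of Orc1, Uhrf1, Chaf1b, Pcna and Mcm2 on each array (points, red for HOXB4 and green for GFP), with the mean and SD of each group of 3 arrays in black. The y axes differ between genes and do not start at 0. Orc1 and Uhrf1 are highest in HOXB4 cells at 20 weeks, Chaf1b is highest in GFP cells at 12 weeks, and Pcna groups lie within 0.28 log2 units of one another by their means.

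The remaining members did not pass the test at 20 weeks, and their values ran from -0.61 to 0.30. Ccne2, which drives entry into S phase with Cdk2, had the lowest value, with 6.24 ± 0.38 (SD, n = 3) in HOXB4 and 6.85 ± 0.34 in GFP cells, a difference of -0.61 ± 0.22 (SE, adjusted p = 0.111). Its relative Ccne1 differed by -0.12. Cdc45, the helicase activator, had 6.73 ± 0.35 in HOXB4 and 7.21 ± 0.15 in GFP cells, a difference of -0.48 ± 0.17 (adjusted p = 0.106). Pole, the lowest member at 12 weeks, stood at 0.14 at 20 weeks. The change of its HOXB4 effect between the times was 0.82 ± 0.26 (adjusted p = 0.221).

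Of the differences in effect between the times, none passed the test (all genes 0.509%), and 4 members had an unadjusted p under 0.05 (all genes 9.80%). They were Chaf1b, Uhrf1, Pole and Orc1. Each of these was more positive at 20 than at 12 weeks.

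Cell markers differed at 20 weeks as well. All 8 measured granulocyte progenitor genes were lower in HOXB4 cells, with log2 summed signals of 11.2 to 12.3 against 14.0 to 14.6 on the GFP arrays. Of 9 measured neutrophil genes 7 were lower, with sums of 10.6 to 12.2 against 14.0 to 14.2. Of 9 monocyte genes 6 were lower, with sums of 10.4 to 10.7 against 12.4 to 12.7, and of 9 megakaryocyte genes 6 were higher, with sums of 10.9 to 12.2 against 8.96 to 9.47. Of 9 B cell genes 1 was higher, with sums of 12.6 to 13.5 against 10.2 to 12.2. Of 8 LSK marker genes 3 were higher (Flt3, Gata2 and Slamf1), with sums of 11.4 to 12.0 against 10.9 to 11.1. Of 7 mast cell and eosinophil genes 2 were higher and 4 were lower. Of 7 erythroid genes 1 was higher, Car2 (1.11, adjusted p = 0.00392). The part of all these cells in the values of Orc1 and Uhrf1 was not tested.

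Pcna and Mcm2 are the members most often used to mark cycling cells, and with the tested probe sets neither passed a test in any of the 7 comparisons. Pcna gave 11.32, 11.29 and 11.34 in HOXB4 and 11.26, 11.16 and 11.27 in GFP cells at 12 weeks. At 20 weeks it gave 11.41, 11.19 and 11.05 in HOXB4 and 11.06, 11.00 and 11.04 in GFP cells, and at 6 weeks 11.23, 11.30 and 10.65 in HOXB4 cells. The HOXB4 arrays lay just above the GFP arrays at 12 weeks and overlapped them at 20 weeks, where replicate 1 was the high array. The differences were 0.09 ± 0.15 (SE, adjusted p = 0.802) and 0.18 ± 0.15 (adjusted p = 0.528).

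Mcm2 gave 9.0, 9.19 and 9.07 in HOXB4 and 9.57, 9.69 and 9.48 in GFP cells at 12 weeks. It gave 9.31, 9.50 and 8.91 in HOXB4 and 9.55, 9.49 and 9.63 in GFP cells at 20 weeks, and 8.42, 9.09 and 9.25 in HOXB4 cells at 6 weeks. The groups lay apart at 12 weeks and overlapped at 20 weeks, and the lowest array was HOXB4 replicate 1 at 6 weeks, the one with the high Gapdh difference. Over the 40 members the median deviation from their own means was 0.09 on that array. It was -0.28 on replicate 3 of the same group, whose Gapdh difference was 1.71. The part of RNA quality in these values was not tested. The Mcm2 differences between HOXB4 and GFP were -0.49 ± 0.19 (SE, adjusted p = 0.161) at 12 weeks and -0.32 ± 0.19 (adjusted p = 0.354) at 20 weeks.

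Control cells were compared between 20 and 12 weeks to see what changes without HOXB4. Chaf1b, the middle subunit of the chaperone that places histones on new DNA, fell, and no other member passed the test (2.50% of the members, all genes 2.37%). The members again lay on 1 side, with 34 of 40 below 0 (all genes 58.0%) and a median of -0.21 (all genes -0.04). The 20-week arrays lay below the 12-week arrays for 18 members (all genes 14.1%) and above them for 3 (all genes 8.04%). At an unadjusted p under 0.05 there were 7 members (all genes 13.1%), all of them lower at 20 weeks (all genes, lower only, 7.76%). After a further quantile normalisation 34 lay below 0, with a median of -0.18.

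This comparison and that of HOXB4 with GFP at 12 weeks share the same 3 GFP arrays, so their shifts are not independent. On those arrays the members' median deviation from their own means was 0.17, 0.16 and 0.23 log2 units. It ran from -0.04 to 0.04 on the GFP arrays at 20 weeks, from -0.03 to -0.01 on the HOXB4 arrays at 12 weeks, from -0.18 to 0.09 at 20 weeks and from -0.28 to 0.09 at 6 weeks. The median over all genes lay within -0.03 and 0.04 on every array. The 3 GFP arrays at 12 weeks were thus the 3 highest of the 15 for the replication genes. The upper quartile of the log2 signals over genes ran from 7.52 to 7.57 on these arrays, from 7.39 to 7.43 on the HOXB4 arrays at 12 weeks and from 7.45 to 7.59 on the GFP arrays at 20 weeks, and the part of this difference in distribution in the members' values was not tested.

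**Figure D4:**
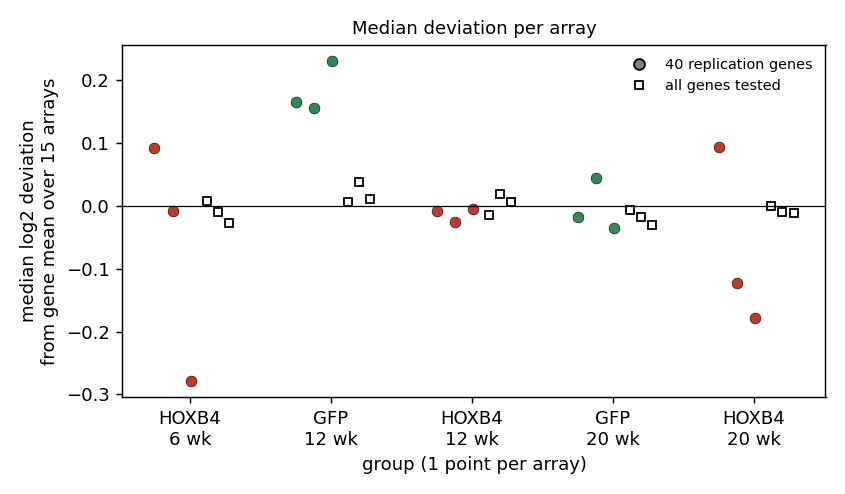
Median over the 40 replication genes (filled circles, red for HOXB4 and green for GFP) and over all 17097 genes (open squares) of the log2 deviation from each gene's mean over 15 arrays, 1 point per array. The GFP arrays at 12 weeks stand at 0.16 to 0.23 for the replication genes, and all squares lie within 0.04 of 0.

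Chaf1b gave 9.13, 8.93 and 9.08 in GFP cells at 12 weeks and 8.39, 8.61 and 8.37 at 20 weeks. In HOXB4 cells it gave 8.33, 8.28 and 8.04 at 6 weeks, 8.51, 8.70 and 8.60 at 12 weeks and 8.77, 8.77 and 8.48 at 20 weeks. The GFP arrays at 12 weeks were above every other array, and the HOXB4 arrays at 6 weeks were below all others. The fall in GFP cells was -0.59 ± 0.12 (SE, 1.51-fold, adjusted p = 0.0179), and the rise in HOXB4 cells from 6 to 20 weeks was 0.45 ± 0.12 (adjusted p = 0.0488). Against GFP, HOXB4 cells differed by -0.44 ± 0.12 at 12 weeks (adjusted p = 0.0585) and by 0.22 ± 0.12 at 20 weeks (adjusted p = 0.323), and the change of that effect was 0.66 ± 0.17 (adjusted p = 0.135).

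The call in GFP cells ended without GFP replicate 1 or 3 at 12 weeks or replicate 1 or 3 at 20 weeks, with adjusted p from 0.0514 to 0.0938. The call in HOXB4 cells from 6 to 20 weeks was lost in 20 of 23 alternative fits, and the 6-week arrays it rests on had Gapdh 3′ minus 5′ differences of 1.68 to 3.76, against 1.21 to 2.02 at 20 weeks. The part of RNA quality in it was not tested. The second probe set of Chaf1b was dim, with a mean of 3.57, and gave -0.22 ± 0.17 in the GFP comparison (adjusted p = 0.688).

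**Figure D5:**
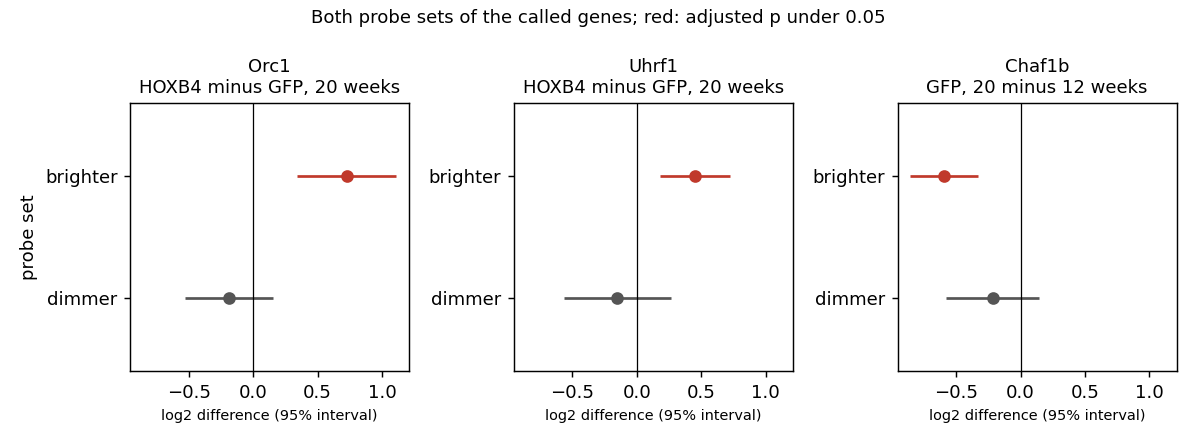
Log2 difference and 95% interval for the brighter and the dimmer probe set of Orc1 and Uhrf1 (HOXB4 minus GFP at 20 weeks) and of Chaf1b (GFP at 20 minus 12 weeks), with adjusted p under 0.05 in red. The dimmer probe sets of Orc1 and Uhrf1 lie at -0.18 and -0.15, on the other side of 0 from the brighter ones, and that of Chaf1b lies at -0.22.

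The next values among the GFP differences belonged to genes of several roles. Ung, the glycosylase that removes uracil from DNA, had 10.10 ± 0.08 (SD, n = 3) at 12 and 9.59 ± 0.13 at 20 weeks, a difference of -0.51 ± 0.15 (SE, adjusted p = 0.103). Mcm10 differed by -0.54 ± 0.22 (adjusted p = 0.296), Mcm3 by -0.47 ± 0.16 (adjusted p = 0.182) and the transcription factor E2f1 by -0.40 ± 0.17 (adjusted p = 0.313). The 6 members above 0 were Ccne2 (0.36), Orc6 (0.29), Rrm2 and Ccne1 (both 0.27), Cdc45 (0.10) and Exo1 (0.07). Both E cyclins were thus on the other side from E2f1.

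In the fit on the 6 GFP arrays alone limma called 3 members, all lower at 20 weeks (Mcm10, Ung and Chaf1b), and 3.61% of all genes. Markers moved here too. Of 9 neutrophil genes 6 and of 9 monocyte genes 7 were higher at 20 weeks, and 5 of 9 megakaryocyte genes were lower, with neutrophil sums of 10.6 to 11.5 at 12 and 14.0 to 14.2 at 20 weeks, monocyte sums of 10.8 to 11.2 and 12.4 to 12.7, and megakaryocyte sums of 10.6 to 11.0 and 8.96 to 9.47. Of 8 LSK marker genes 2 were lower at 20 weeks, Cd34 (-0.80, adjusted p = 0.00465) and Procr (-1.24, adjusted p = 0.0471), with a list median of -0.77 and sums of 11.8 at 12 weeks and 10.9 to 11.1 at 20 weeks. Kit ran from 8.62 to 8.79 and from 8.33 to 8.45. Of 9 B cell genes 1 was higher at 20 weeks, Ighm (4.23, adjusted p = 5.2e-05). Of 7 erythroid genes 2 were lower, Car2 (-1.15, adjusted p = 0.00876) and Epor (-0.84, adjusted p = 0.0234). The part of all these cells in the members' values was not tested.

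Time within HOXB4 cells was compared over 3 pairs. The 6-week arrays had Gapdh 3′ minus 5′ differences of 1.68 to 3.76, against 0.928 to 1.02 at 12 weeks and 1.21 to 2.02 at 20 weeks. The part of RNA quality in the comparisons with 6 weeks was not tested, for the members or for the other lists below. From 6 to 12 weeks no member passed the test (all genes 1.57%), the smallest adjusted p was 0.0622, and 6 members had an unadjusted p under 0.05 (all genes 16.7%). The highest values were those of the clamp loader subunit Rfc3, with 6.81 ± 0.25 (SD, n = 3) at 6 and 7.66 ± 0.15 at 12 weeks, a difference of 0.85 ± 0.22 (SE, adjusted p = 0.0622), and of Gins2, with 8.54 ± 0.56 and 9.39 ± 0.10, a difference of 0.85 ± 0.24 (adjusted p = 0.0858). Mcm5 had the lowest value, -0.47 ± 0.16 (adjusted p = 0.14). The 12-week arrays lay above the 6-week arrays for 9 members (all genes 12.8%). Of the 40 members 18 lay below 0 (all genes 48.4%) with a median of 0.03, which turned to -0.11, with 26 below 0, after a further quantile normalisation.

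From 12 to 20 weeks no member passed the test (all genes 0.252%), and 4 had an unadjusted p under 0.05 (all genes 11.2%). Below 0 lay 25 of the 40 (all genes 52.2%). Pole had the highest value, 0.61 ± 0.18 (SE, adjusted p = 0.206), followed by Uhrf1, and E2f1 the lowest, -0.38 ± 0.17 (adjusted p = 0.427). All 7 genes of the clamp, its loader and the fork lay below 0, from -0.33 to -0.06, with a median of -0.18. From 6 to 20 weeks Chaf1b was the only member called (2.50% of the members, all genes 4.66%), and 8 members had an unadjusted p under 0.05 (all genes 20.6%). The Chaf1b call held in 3 of 23 alternative fits. Rrm2, the regulated ribonucleotide reductase subunit, had a difference of 0.51 ± 0.17 (adjusted p = 0.11).

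Cell markers moved within HOXB4 cells too. From 6 to 12 weeks the neutrophil gene Camp (2.70, adjusted p = 0.0274) and the B cell gene Ighm (2.47, adjusted p = 0.0122) were higher, and the sums ran from 8.40 to 11.7 and from 12.5 to 13.1 for neutrophil genes and from 9.05 to 12.6 and from 12.2 to 12.7 for B cell genes. From 6 to 20 weeks 4 of 8 granulocyte progenitor genes were lower, with a median of -1.43 and sums of 12.6 to 13.5 and 11.2 to 12.3, and 2 of 9 B cell genes were higher, with a median of 1.87 and sums of 12.6 to 13.5 at 20 weeks. Single genes of the LSK, monocyte, T cell and erythroid lists were also called over that span. The part of these cells in the values of Chaf1b and the other members was not tested.

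Several members had more than 1 probe set, and these did not always give the same picture. There were 30 further probe sets of 22 members. Their sign was that of the tested probe set for 24 of 30 at 12 weeks, for 18 of 30 at 20 weeks and for 26 of 30 in GFP cells over time. A second probe set of Mcm2, whose name marks possible cross-hybridisation, went from 8.20 ± 0.47 (SD, n = 3) in HOXB4 cells at 6 weeks to 7.32 ± 0.38 at 20 weeks, a difference of -0.88 ± 0.21 (SE, adjusted p = 0.0304 over all named probe sets). The tested probe set of Mcm2 gave 0.32 ± 0.19 for the same comparison (adjusted p = 0.363).

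A second probe set of Tyms, the thymidylate synthase gene, gave 6.92 ± 0.11 (SD, n = 3) in HOXB4 cells at 6 weeks, 6.86 ± 0.06 at 12 weeks and 6.17 ± 0.29 at 20 weeks, against 6.22 ± 0.07 and 6.13 ± 0.24 in GFP cells at 12 and 20 weeks. At 12 weeks this probe set stood above GFP in HOXB4 cells by 0.64 ± 0.15 (SE, adjusted p = 0.0293) and in HOXB4 cells its 20-week minus 6-week difference was -0.74 ± 0.15 (adjusted p = 0.0141). The tested probe set, itself marked for cross-hybridisation as were those of Mcm7, Rfc2 and Rfc4, gave -0.28 ± 0.16 (adjusted p = 0.366) and 0.25 ± 0.16 (adjusted p = 0.43). Both genes are therefore uncertain over these times.

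Further genes of the replication machinery, 41 measured of a list of 47, gave the partners of several members. In HOXB4 against GFP cells at 12 weeks 4 fell and 0 rose (all genes called 4.02%), with a median of -0.26. They were Pole2, the accessory subunit of the leading-strand polymerase (-0.66 ± 0.12, SE, adjusted p = 0.00734), the nuclease and helicase Dna2 (-0.54, adjusted p = 0.0183), the helicase Mcm8 (-0.70, adjusted p = 0.0206) and Pold2, the accessory subunit of the lagging-strand polymerase (-0.96, adjusted p = 0.0208). Pole and Pold1, the catalytic partners of Pole2 and Pold2, had values of -0.69 and -0.37 that did not pass the test.

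At 20 weeks 1 gene of that list rose and 2 fell (all genes called 8.95%), with a median of -0.19. Cdc7, the kinase that fires origins, was higher by 0.62 (adjusted p = 0.0321), Dna2 was lower by -0.58 (adjusted p = 0.00517), and Orc2, a partner of Orc1 in the origin recognition complex, was lower by -0.62 (adjusted p = 0.0091). With the probe sets tested, Orc1 and Orc2 thus passed the test in opposite directions. The Orc1 call did not hold with its dimmer probe set or with its probe sets averaged. Any further probe sets of Orc2 are not reported here. In GFP cells over time 0 of the 41 were called (all genes 2.37%). In HOXB4 cells Pole3 rose and Dna2 fell from 6 to 12 weeks (all genes called 1.57%) and from 6 to 20 weeks (all genes 4.66%). Orc2 fell from 12 to 20 weeks (all genes 0.252%).

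Nucleotide supply, 25 genes measured of 29 including the members Tyms, Rrm1, Rrm2 and Dut, had at most 4 calls in any comparison. Of all genes 4.02% and 8.95% were called between HOXB4 and GFP cells at 12 and 20 weeks. In HOXB4 cells the shares were 0.252% from 12 to 20 weeks and 4.66% from 6 to 20 weeks. The thymidylate kinase gene Dtymk fell in HOXB4 against GFP cells at 12 weeks (-0.41, adjusted p = 0.0461) and was the 1 call there. At 20 weeks Rrm2b, the ribonucleotide reductase subunit of resting cells, rose (0.61, adjusted p = 0.0415) and the purine synthesis gene Pfas fell (-0.72, adjusted p = 0.0448). In GFP cells over time none of the 25 passed the test. From 12 to 20 weeks in HOXB4 cells Pfas was the 1 call (-1.13, adjusted p = 0.0417). From 6 to 20 weeks 1 rose, the guanine nucleotide synthesis gene Impdh1 (0.81, adjusted p = 0.0117), and 3 fell, Pfas (-0.94, adjusted p = 0.0226) and the folate cycle genes Mthfd1 (-0.85, adjusted p = 0.0225) and Shmt1 (-0.57, adjusted p = 0.0373).

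Among 30 measured of 31 regulators of the passage from G1 to S, the genes called were brakes and D cyclins. In HOXB4 against GFP cells 0 rose and 1 fell at 12 weeks (all genes called 4.02%). At 20 weeks 2 rose and 1 fell (all genes 8.95%). In GFP cells over time 1 rose and 1 fell (all genes 2.37%). At 12 weeks Ccnd1 fell in HOXB4 against GFP cells (-0.77, adjusted p = 0.0414). At 20 weeks the inhibitor Cdkn1b rose (0.79, adjusted p = 0.000279) and Ccnd3 rose (0.81, adjusted p = 0.0363), while the inhibitor Cdkn1c fell (-0.98, adjusted p = 0.000136). In GFP cells Cdkn1c rose (0.73, adjusted p = 0.00411) and Ccnd2 fell (-0.69, adjusted p = 0.0121) from 12 to 20 weeks. From 6 to 20 weeks in HOXB4 cells 5 rose and 0 fell (all genes called 4.66%), among them Cdkn1b (0.66, adjusted p = 0.00529) and Rbl2, a relative of the retinoblastoma protein (0.77, adjusted p = 0.0106). None of these regulators passed the test of the difference between the times.

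The later steps of the cycle were at hand through 26 measured of 27 genes of G2 and mitosis. None of them was called between HOXB4 and GFP cells at 12 or 20 weeks or in GFP cells over time, where their medians were 0.07, 0.06 and -0.12. In HOXB4 against GFP cells Mki67 had the smallest p of the list at both times and did not pass the test. It was higher by 0.30 at 12 weeks (adjusted p = 0.17) and by 0.33 at 20 weeks (adjusted p = 0.0978). Its HOXB4 arrays lay above the GFP arrays, with 11.57 to 11.73 against 11.33 to 11.39 and 11.69 to 12.02 against 11.37 to 11.54. Bub1 was lower at 12 weeks (-0.54, adjusted p = 0.23). From 6 to 12 weeks in HOXB4 cells the median of the 26 genes was 0.36 with 1 call (all genes called 1.57%), Plk1 (0.94, adjusted p = 0.0445). From 6 to 20 weeks it was 0.42 with 1 call (all genes 4.66%), Foxm1 (0.72, adjusted p = 0.0496). The replication genes had medians of 0.03 and -0.03 in those comparisons. Both comparisons rest on the 6-week arrays, and the part of their RNA quality in these values was not tested.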

How the data were processed

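The values are the authors' deposited log2 signals, 45141 probe sets on 15 arrays, made with Partek 6.5 by RMA, which the submitters' processing notes name. Filters and further scaling were not given in the sources used here. Names came from the platform annotation, updated by gene identifier against the GRCm38.p6 table: 28898 had 1 symbol, 551 had several and 15692 were not listed. The brightest probe set of each gene was tested. Levels of different probe sets were not compared. One limma model (3.58.1, R 4.3.3) with a mean per group gave 7 comparisons, with Benjamini-Hochberg adjustment over 17097 genes and calls at an adjusted p under 0.05. The model had 10 residual and 4.55 prior degrees of freedom. It was tried on simulated data for 1 comparison, with the same spread of a gene in all groups. That trial does not cover the unequal spreads between the groups seen here. With 3 arrays against 3 an exact permutation test cannot go below 0.1. The number of arrays limits the precision. The members and lists were chosen with earlier results of these data known. Genes named array by array were Pcna, Mcm2 and every member called in any comparison, and of each other list at most 4 genes per comparison with the smallest p. Alternatives changed the arrays fitted, the filter, the probe sets, the scaling, the moderation and a replicate block. Same-numbered arrays showed little common deviation: of 30 correlations between groups, 2 exceeded 0.1, which does not settle whether they are paired.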

Additional observations from a re-analysis of the deposited data

How the results depend on the processing

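The differences called for Orc1, Uhrf1 and Chaf1b kept their direction under each of the 23 alternative fits. Many of these fits change only the spread or the adjustment and cannot change a difference. Leaving out an array of a group not compared is such a fit. The dimmer probe sets of Orc1 and Uhrf1 lay on the other side of 0, as given above. The counts of members called moved as follows. Fitted on the compared groups alone, 9 members were called between HOXB4 and GFP cells at 12 weeks in place of 0 (all genes 15.2% in place of 4.02%). At 20 weeks it was 0 in place of 2 (all genes 4.18% in place of 8.95%). In GFP cells over time it was 3 in place of 1 (all genes 3.61% in place of 2.37%), and in HOXB4 cells from 6 to 20 weeks 0 in place of 1. The 12-week count was 1 (Pole) without the dimmest genes and 4 (Mcm2, Gins1, Pole and Chaf1b) with probe sets averaged. The call of Chaf1b from 6 to 20 weeks gave way to 0 with probe sets averaged, with all probe sets tested, with median centring and with trend and robust moderation. The labels do not say whether the replicate number pairs the arrays. With this number as a block, 1 member (Pole) was called at 12 weeks and 0 from 6 to 20 weeks in HOXB4 cells. No other count changed. Leaving out each of the 15 arrays in turn gave 0 to 4 calls at 12 weeks, 0 to 3 at 20 weeks, 0 to 1 for the difference between the times, 0 to 2 from 6 to 12 weeks, 0 to 0 from 12 to 20 weeks, 0 to 2 from 6 to 20 weeks and 0 to 2 in GFP cells over time. The highest count at 12 weeks came without HOXB4 replicate 3 at 6 weeks (Gins1, Pole, Fen1 and Chaf1b), and Uhrf1 passed the test of the difference between the times without GFP replicate 3 at 20 weeks. Apart from the shares in brackets, the share of all genes called in each alternative fit is not given here. A change in the members' counts can therefore not be told from a general change in calls. The causes were not tested. Without detection calls, a low value may be background.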
